A study of Caenorhabditis elegans with 2 samples.

Results

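Among 3082 peaks of a ChIP-seq experiment on the F44E2.7-eGFP fusion protein in Caenorhabditis elegans, 637 had their summit in the protein-coding part of an exon on 1 of the 5 autosomes, away from gene starts, UTRs and small RNA genes. They were chosen by rule from the ranked peak list made from both replicates. That list orders 108809 peaks by the irreproducible discovery rate (IDR), which measures how consistently a peak ranks between a pair of peak sets, and it gives each peak the authors' score, which rises as the IDR falls. Peaks with a score of at least 540 (IDR of 0.05) were kept, except 92 that passed the authors' own threshold (a score of 830, IDR of 0.01) by score but were absent from their thresholded list. A summit then had to lie in coding sequence, outside promoter windows (1000 bp before to 200 bp after the start of a protein-coding gene), outside UTRs, and more than 200 bp from any tRNA, snoRNA, snRNA or ncRNA gene. The remaining peaks were 513 in promoter windows, 500 in introns, 349 in intergenic DNA, 408 near small RNA genes, 69 in UTRs and 67 in other exons of autosomes, and 539 on the X chromosome.

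The study has 1 group of 2 biological replicates of whole L4 larvae of strain OP381, 48 hours old, which had been synchronized as starved L1 larvae after bleaching. The strain carries the transgene wgIs381, which encodes F44E2.7 with TY1, EGFP and 3xFLAG tags together with unc-119(+), and it also carries the unc-119(tm4063) allele. For the immunoprecipitation the labelled protocol gives an anti-GFP antibody, whereas the antibody entry of the labels is F44E2.7. Sonication brought the chromatin to sizes of 200 to 800, with no unit given. The tagged protein therefore comes from a transgene, the material is whole animals with all their tissues mixed, and no untagged sample was analysed here. Depth is unknown, since the files give no read counts, and the values quoted are the authors' signal per peak, a measure of enrichment without a stated scale that is used only within a list. The members were picked by their score in the list made from both replicates, so counts, shares and intervals are descriptions and no test was made.

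ChIP-seq maps the DNA that comes down with a protein, and for transcription factors most attention goes to promoters and enhancers. Coding exons differ from the DNA around them, since in C. elegans they are richer in G and C than introns and intergenic DNA and their sequence is held to codons. Cuticle collagens, which appear often below, are short secreted proteins whose triple helix requires glycine once in every 3 residues, so that their coding sequence repeats GGN codons, often with CCN proline codons between them. The nematode cuticle is rebuilt at each molt, and the epidermis transcribes collagen genes in step with the molts.

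The DNA at the summits is shown first, as 30 bases on the coding strand of the gene (ce11, from the RefSeq copy of the same assembly). Capitals in the first set mark unbroken runs of at least 4 G or C. Summits in Y43F8B.3 (signal 130), Y113G7B.15 (120), dhcr-7 (104.3), swsn-1 (96.0) and unc-51 (95.9), and 1 in mlt-4 (110), had no such run. Those in col-105 (103), Y113G7C.1 (101.4) and K02E2.8 (97.1) had one. All of these exceeded act-5 (93.0) in signal. The first set holds other summits of high signal, not the highest in order, and each has such a run. Such runs were not counted over all members or coding positions, so the set gives no frequency. They lie at chrV:20105481-20105510 (sec-23, plus strand), chrV:20480448-20480477 (rpl-2, plus), chrV:20282977-20283006 (mlt-4, minus), chrV:1642924-1642953 (Y46H3D.1, plus) and chrIII:13605040-13605069 (act-5, minus).
sec-23: cggttCCGCtgtattcaccgatgacgtgtc
rpl-2: gttcaatcggtcaaCCGCGCCatgattgga
mlt-4: taCGGCGGtcttctGGGCCtgtatgggtgg
Y46H3D.1: tcaCGCCaCCGCCCGCCaagcaggctacac
act-5: cgacttcgagtccgagctCGCCGCCGCCGC
The second set shows collagen summits, and capitals mark the glycine codons (GGN) in the reading frame. They lie at chrIV:1358197-1358226 (col-105, minus), chrIV:12427910-12427939 (col-130, minus), chrII:7167730-7167759 (col-36, minus), chrV:12353846-12353875 (sqt-3, plus) and chrV:9162703-9162732 (col-145, minus).
col-105: tGGGgagcctGGGctacctGGCgcccaggg
col-130: acagccaGGAgccccaGGAccagctGGAcc
col-36: GGAccacaaGGAccacaaGGAccaccaGGA
sqt-3: GGAccgccaGGAccaccaGGAccaaagGGA
col-145: gccacgtgtcaacccattcaactccgtctt
In the collagens other than col-145 the capitals recur every 9 bases, the length of 3 codons, which is the helix repeat. The summit of col-145 lies outside that repeat. The third set shows the word of 6 bases whose share in the members most exceeded its share in coding sequence, GGAGCC or its reverse complement GGCTCC, in capitals. They lie at chrIII:13615637-13615666 (hip-1, minus), chrIV:9852747-9852776 (ssq-1, plus), chrIII:835933-835962 (dos-3, minus) and chrIII:3614277-3614306 (sel-8, minus).
hip-1: ggcGGAGCCccaggaggaatgggcgctgga
ssq-1: tGGAGCCggaggaggtggcggtggcggagc
dos-3: cgtgaacgtggattGGCTCCagggccaaat
sel-8: ccgtcgacGGCTCCaccaccagctcagaat

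The peaks themselves were uniform in shape and modest in height. All 637 were 270 bp wide with the summit at the centre, a width shared by 878 of the 896 peaks (98.0%) in the authors' thresholded list. Their signal ran from 2.15 to 137 with a median of 61.7 (interquartile range 56.3 to 68.5), against a median of 62.9 for intron peaks and 64.6 for intergenic peaks. The median score was 652 for the coding exon peaks, 676 for intron peaks and 678 for intergenic peaks, on a scale that ends at 1000. Just inside the score limit were faah-5 (score 540, signal 42.2) and sdc-3 (score 540, signal 59.9). Just outside were pitr-1 (score 539, signal 51.6) and M151.2 (score 539, signal 57.9).

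Fewer of the coding exon peaks than of the other classes were in the stricter lists. The authors' thresholded list is cut at 830 on the same score that chose the members, so its shares restate how high the scores lie. The other lists are cut from related scores. The authors' thresholded list held 16.3% of the coding exon peaks (exact Clopper-Pearson 95% interval 13.5 to 19.4%), where 29.1% of all peaks were held. These intervals cover counting error over peaks only. The share was 23.4% for intron peaks (interval 19.8 to 27.4%) and 25.2% for intergenic peaks (20.7 to 30.1%). Conservative peaks overlapped 96 members (15.1%), against 26.5% of all peaks. In the thresholded list made from replicate 1 alone 4 members had an overlapping peak (0.628%, interval 0.171 to 1.60%), against 5.42% of all peaks. In that of replicate 2 alone 17 members did (2.67%, interval 1.56 to 4.24%), against 10.3% of all peaks. Both replicate lists held 2 members (0.314%), against 3.70% of all peaks, 1.6% of intron peaks and 4.01% of intergenic peaks. Peaks near small RNA genes stood at the other end, with 11.0% in both replicate lists.

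**Figure D1:**
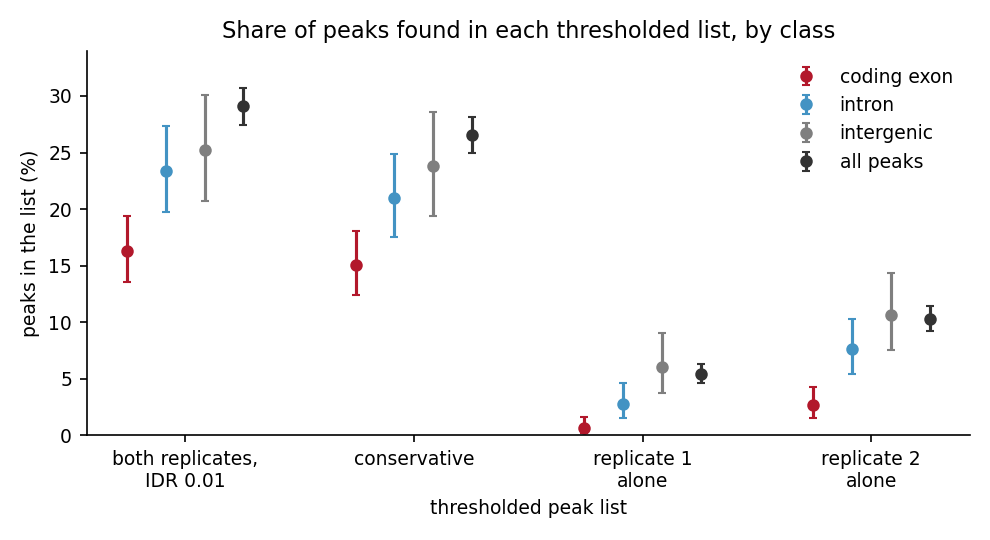
Percent of peaks of each class (y axis) that are in the thresholded list from both replicates or overlap a peak of the conservative, replicate 1 or replicate 2 list (x axis), with exact 95% intervals as bars. Coding exon peaks are lowest in each list, with 16.3%, 15.1%, 0.628% and 2.67%.

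Most members overlapped a peak in the full list of each replicate, as did most of all peaks. A peak of the full ranked list, with no threshold, overlapped 611 members in replicate 1 (95.9%) and 622 in replicate 2 (97.6%), and 597 had one in both. Among all peaks the shares were 95.9% and 98.4%. Those peaks had a median signal of 27.9 in replicate 1 and 34.6 in replicate 2, values that belong to separate lists and are not compared. With the limit of 540 applied to the replicates' own scores, 37 members had a replicate 1 peak (5.81%, against 12.5% of all peaks) and 71 a replicate 2 peak (11.1%, against 21.2% of all peaks). Across the 597 members, the replicates' signals had a Spearman rho of -0.195, against 0.0825 over all peaks and 0.414 over peaks near small RNA genes. The members share 1 pair of libraries and were chosen by a pooled score to which both replicates contribute, so these coefficients only describe the lists.

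**Figure D2:**
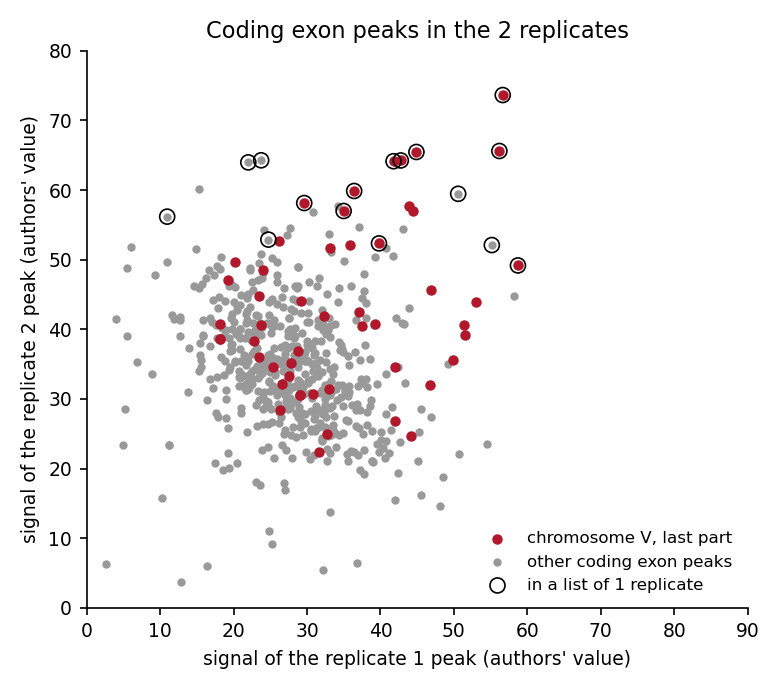
Signal of the overlapping ranked peak in replicate 1 (x axis) and replicate 2 (y axis), each in the authors' units, for the 597 coding exon peaks with both. Red points lie on chromosome V beyond 19 Mb, and rings mark peaks in the thresholded list of at least 1 replicate, which lie toward the upper right or the top of the cloud.

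The members of highest signal came largely from 1 chromosome end. Of the 20 highest, 12 lay on chromosome V beyond 19 Mb. The first was in sec-23, which encodes a subunit of the COPII coat that carries proteins out of the endoplasmic reticulum (chromosome V, 20105361 to 20105630, exon 12 of 12). Its signal was 137 in the list from both replicates and 84.7 in replicate 1, and no ranked peak of replicate 2 overlapped it. The second was in Y43F8B.3, with 130 in the list from both replicates, 56.2 in replicate 1 and 65.6 in replicate 2. It was 1 of the 2 members in the thresholded lists of both replicates. The other was in Y113G7C.1, with 101.4 in the list from both replicates, 58.7 in replicate 1 and 49.2 in replicate 2. Both genes are on the end of chromosome V, so without that end no member was in both replicate lists.

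Y113G7B.15 held a peak of signal 120, with 56.6 in replicate 1 and 73.6 in replicate 2. The peak in rpl-2, a protein of the large ribosomal subunit, had 114, with 42.8 in replicate 1 and 64.2 in replicate 2. In mlt-4, a gene needed for molting, there were 2 peaks 1257 bp apart with signals of 112 and 110. Their replicate 1 signals were 41.8 and 44.9, and their replicate 2 signals 64.1 and 65.5. These 3 genes also lie on the end of chromosome V, and their peaks were in the replicate 2 list but not in the replicate 1 list. A peak in swsn-1, a subunit of the SWI/SNF chromatin remodelling complex, had a signal of 96.0 and 58.7 in replicate 2, with no ranked peak in replicate 1. K02E2.8 (97.1) and dhcr-7 (104.3), both on that end, completed the group with unc-51 (102 and 95.9), the kinase that starts autophagy and guides axons.

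Away from that end, the highest member was in tmem-107, a membrane protein of the ciliary transition zone (chromosome I, 14758749 to 14759018). Its signal was 106, with 55.2 in replicate 1 and 52.1 in replicate 2, and it was in the replicate 1 list. Y46H3D.1 followed with 106, 50.6 in replicate 1 and 59.5 in replicate 2, and was in the replicate 2 list. The cuticle collagen col-105 had 103, with 43.1 in replicate 1 and 54.4 in replicate 2. act-5, the actin of the intestinal microvilli, had 93.0, with 40.7 in replicate 1 and 51.6 in replicate 2, and pod-1, a coronin-like protein of cell polarity, had 92.3, with 33.0 and 53.7. ZC247.1 (94.7), C37H5.5 (92.7) and F55A12.18 (91.8) were the others of the 20. Of the 20, 18 were in the authors' thresholded list, and ZC247.1 and F55A12.18 were not.

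Chromosome V beyond 19 Mb held 55 members in 37 genes, or 182 per Mb of coding sequence that met the position rule, against 36.2 per Mb elsewhere and 27.5 per Mb on the rest of chromosome V. Of those 55 peaks, 26 were in the authors' thresholded list (47.3%), compared with 78 of the 582 elsewhere (13.4%). Their median signal was 71.1, against 61.4 elsewhere. Of the 19 members in the thresholded list of at least 1 replicate, 12 were on that end. The other classes were crowded there as well: that end held 8.63% of the coding exon peaks, 11.2% of intron peaks, 8.88% of intergenic peaks and 6.52% of all peaks. By whole chromosome, the densities were 40.4 per Mb on chromosome I, 37.0 on II, 44.4 on III, 35.1 on IV and 38.5 on V. The central 50% of each autosome held, in all, 273 members (42.9%, interval 39.0 to 46.8%), less than its 58.3% share of the coding sequence that met the rule. Without the end of chromosome V the share was 46.9%. Intron peaks were there in 30.4% and intergenic peaks in 37.8%. Of all peaks, those on the X chromosome included, 42.99% lay in the central part of their chromosome, close to the share of the members. The central share of intron and intergenic DNA was not computed, so those classes have no background here.

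The summits were rich in G and C. In windows that reach 50 bp each way from the summit, the median GC content was 49.5%, and in flanks centred 300 bp to either side it was 38.1%. The summit exceeded its flanks in 569 members (89.3%, interval 86.7 to 91.6%). Coding sequence is itself richer in GC than its surroundings, so the same measure was taken at 327197 coding positions that met the position rule: their median was 40.6% with 36.6% in the flanks, and 67.9% exceeded their flanks. Of the members, 552 (86.7%) lay above the median of those positions, and 466 (73.2%) lay in a window richer in GC than the whole coding sequence of their own gene. Intron peaks had 45.5% at the summit and 37.6% in the flanks, and intergenic peaks 45.5% and 35.6%, with the summit higher in 80.4% and 82.8%. All peaks had 48.5% and 36.1%, with the summit higher in 86.8%. The summit was higher in 90.9% of autosomal peaks near small RNA genes and 90.4% of X peaks, so a GC-rich summit was not particular to coding exons. At the central 21 bp the mean reached 51.2% in coding exon peaks, 45.8% in intron peaks and 48.2% in intergenic peaks, against 42.7% at coding positions of all genes.

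**Figure D3:**
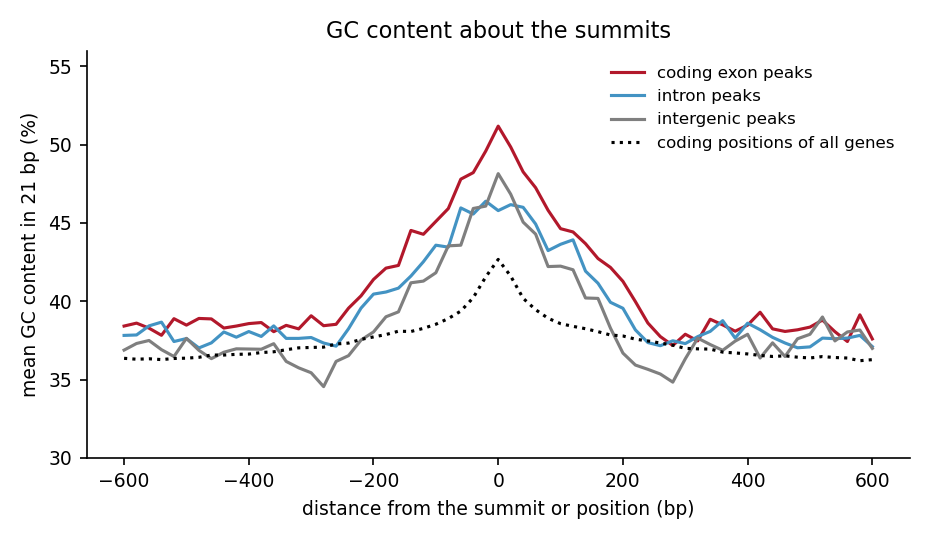
Mean GC content in windows of 21 bp (y axis, percent) by distance from the summit (x axis, bp) for coding exon, intron and intergenic peaks, and about coding positions that met the position rule (dotted). Coding exon peaks reach 51.2% at the centre, and the dotted line reaches 42.7%.

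The number of members per Mb of coding sequence was higher at each step of GC content. It was 3.24 per Mb where that window held under 35% GC (10 members), 12.7 at 35 to 40% (55 members), 28.0 at 40 to 45% (124 members) and 57.99 at 45 to 50% (161 members). It was 125 at 50 to 55% (150 members), 206 at 55 to 60% (80 members) and 440 at 60% or more (57 members). Without the end of chromosome V the lowest and highest steps had 2.63 and 425 per Mb. Among the members in the authors' thresholded list the same steps ran from 0.324 to 147 per Mb, although the lowest rests on 1 peak. The median signal ran from 60.3 at 45 to 50% to 68.4 at 60% or more, where all members had an interquartile range of 56.3 to 68.5. At those steps the median score was 641 and 747, and 12.4% and 33.3% were in the authors' thresholded list. The change was not steady, since the step at 35 to 40% had a median signal of 62.4, a median score of 617 and 18.2% in that list. No read coverage or input track was analysed here, so the part of base composition in sequencing, as distinct from binding, was not tested.

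**Figure D4:**
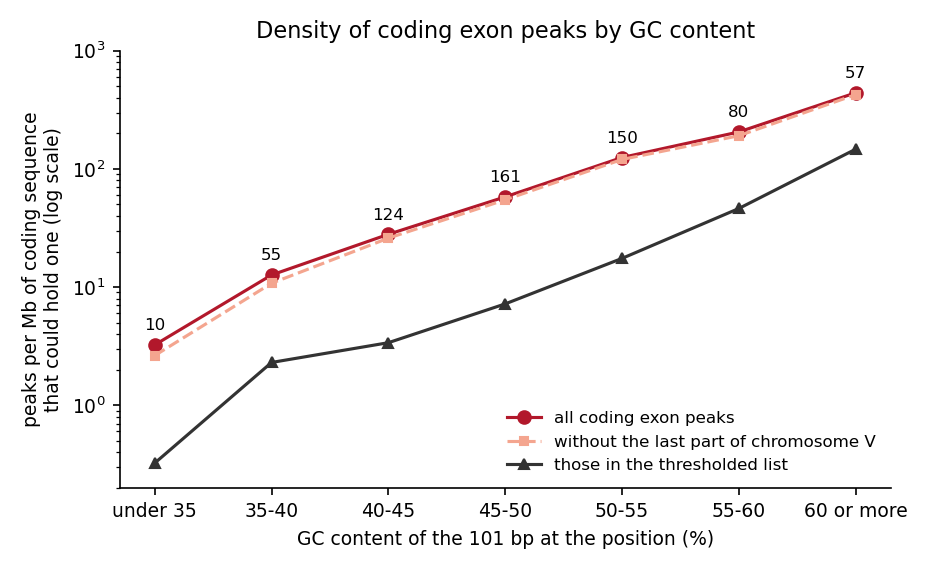
Coding exon peaks per Mb of coding sequence that could hold one (y axis, log scale) by GC content of the window at the position (x axis), for all members, without chromosome V beyond 19 Mb, and for those in the authors' thresholded list. The numbers give the members in each step, and each line climbs from left to right.

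Codon content followed the same direction. In the windows of the members, G or C made up 58.4% at the first, 48.3% at the second and 45.6% at the third codon position, against 50.2%, 38.9% and 39.2% in all coding sequence that met the rule. Glycine codons (GGN) made up 8.66% of codons at the members and 5.36% of all codons. Proline codons (CCN) made up 8.30% and 4.93%, and alanine codons (GCN) 8.64% and 6.37%. Outside collagen genes glycine codons were 7.43% and proline codons 7.42%, still above the share in all coding sequence. In the collagen peaks 29.1% of codons were glycine and 22.9% proline, and 26.9% of bases at the third position were G or C.

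Of 2080 words of 6 bases, counted with their reverse complements in those windows, GGAGCC had the largest excess over coding sequence. It was in 86 members (13.5%), in 12.1% of members outside collagen genes and in 4.54% of coding positions, against 4.6% of intron peaks and 3.44% of intergenic peaks. Next came CCACCA (14.8% of members and 7.30% of coding positions), GCTCCA (16.3% and 8.99%) and GGAGGA (13.5% and 6.35%). The words overlap one another and all are rich in G and C. The collagen-type repeat GGNCCNGG was in 6.28% of members, 2.65% of those outside collagen genes and 1.34% of coding positions, on either strand. GGNGCNGG was in 7.54% of members and 2.61% of coding positions. TGATAA, the core of GATA factor sites, was in 5.81% of members and 9.28% of coding positions, GAGAG was in 18.2% and 15.3%, and the B box of RNA polymerase III genes was in 2.98% and 2.77%.

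Within genes, the summits lay in longer exons than coding bases in general. Taking the longest annotated coding exon over each base, its median length was 361 bp at the summits, against 287 bp for coding bases that met the rule, and 64.2% lay in exons of at least 270 bp, the width of a peak, against 53.0% of those bases. The first coding exon held 35 members (5.49%) and the last held 144 (22.6%). Dividing the coding sequence into 5 equal parts from its start gave 87, 120, 130, 155 and 145 members, and the median summit stood at 57.5% of its length. The rule removes promoter windows, which takes coding sequence from the part next to the start. Genes on the plus strand held 332 members (52.1%). No share of the coding bases that met the rule is set beside these exons, parts and strands, so they are counts only. The sequence at the summit was unique in nearly all: 31 bp occurred once in the genome for 624 members (98.0%), against 86.2% of intron peaks, 80.2% of intergenic peaks and 87.2% of all peaks. The 13 others included rpl-2 (3 copies), dhcr-7 (2), ttn-1 (14) and ZC178.2 (36). Only 2 members lay over a non-coding gene of any kind, and the median distance to the nearest small RNA gene was 7761 bp.

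The 637 peaks fell in 571 of 17242 autosomal protein-coding genes, 3.31%. There were 56 genes with at least 2 peaks, which held 122 of the members, and 9 with at least 3. unc-51 had 4 within 2296 bp, with signals of 102, 95.9, 71.0 and 67.0. Y113G7B.15 had 3 with signals from 85.8 to 120, and F53H2.3 had 3 from 64.9 to 79.6. csr-1, an Argonaute of the germline small RNA pathway, had 3 within 1454 bp with signals from 49.0 to 60.01. The other genes with 3 were grd-11 (hedgehog-related), mcd-1, clec-78 (a C-type lectin), unc-22 (the muscle giant twitchin) and F01G4.4. In 20 of the 56 genes a pair of summits was less than 270 bp apart, so the peaks overlapped. The densities per Mb count both peaks of such a pair.

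The remaining 47 genes had 2 peaks each. On the end of chromosome V these were Y43F8B.3, mlt-4, dhcr-7, mdt-17, cdkr-3, lgc-55, col-163, Y113G7B.12 and clec-262. Collagen genes were col-14, col-48, col-99 and col-122. Genes of metabolism, peroxisomes and mitochondria were icl-1 of the glyoxylate cycle, nuo-5 of respiratory complex I, lpin-1, cpt-1, agl-1, pmp-5, mrpl-4 and mrpl-24. Cytoskeletal and adhesion genes were act-5, vab-10 (spectraplakin), afd-1, cyk-1 (a formin of cytokinesis) and citk-2. Others were egg-1 of the egg surface, sel-8 of Notch signalling, noah-1 of the apical matrix, the ubiquitin ligase eel-1 and symk-1 of RNA end processing. arid-1, elks-1, sumv-2, ztf-7, mak-1, nra-1, phm-2 and pqn-41 also had 2 peaks each. C05B5.4, F54A3.2, W09D10.4, Y18D10A.11, Y38C1AA.12, Y53C10A.24, Y71G12B.17 and ZC247.1 made up the rest.

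Among the lists of at least 20 genes, collagens had the highest share of genes with a peak. Of 145 autosomal collagen genes, 29 had a coding exon peak (20%, interval 13.8 to 27.4%), against 3.31% of all genes and of the 13906 genes in no list. They held 34 members, or 308 per Mb of coding sequence that met the rule, against 38.9 per Mb over all genes. The 34 include 2 overlapping peaks in each of col-14, col-48, col-122 and col-163. In the authors' thresholded list were 11 of the 34, from 9 genes, where 16.3% of all members were in that list. The median signal of the 34 was 64.8, close to the median of all members. The highest was col-105 (103), followed by col-104 (85.4 in the list from both replicates and 49.99 in replicate 2, with no ranked peak in replicate 1), col-130 (77.9, with 43.3 in replicate 1 and 32.3 in replicate 2) and col-163 (77.7, with 39.3 and 40.7). Besides the numbered genes there were peaks in bli-1 (73.4), which forms the struts of the adult cuticle, in sqt-3 (61.7), a cuticle collagen that shapes the body, in emb-9 (61.7), a basement membrane collagen, and in cle-1 (54.6), a collagen with an endostatin domain. col-104 was the only collagen peak in the thresholded list of a replicate.

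The collagen peaks lay in GC-rich sequence, and so did the coding sequence of their genes as a whole. The median GC content was 60.4% at collagen peaks, against 48.5% at peaks in other genes, and 55.4% over collagen coding positions, against 40.6% over all coding positions. Split by GC content, the collagen genes held 0 peaks per Mb in each of the 3 steps below 45%, where other genes held 3.24, 12.7 and 28.05. The collagen genes had only 19.1 kb of coding sequence there, too little to show an absence. At 45 to 50% they had 143 (2 peaks) against 57.5 in other genes. At 60% or more they had 558 per Mb (18 peaks), against 402 in other genes. At 55 to 60% they had 341 (8 peaks) against 196, and at 50 to 55% 278 (6 peaks) against 123. Each collagen step has fewer than 20 peaks, the steps are broad and the highest has no upper end, so whether GC content accounts for the collagen density was not tested. Many collagen genes share near-identical repeats, but no collagen member had a second exact copy of its 31 bp.

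**Figure D5:**
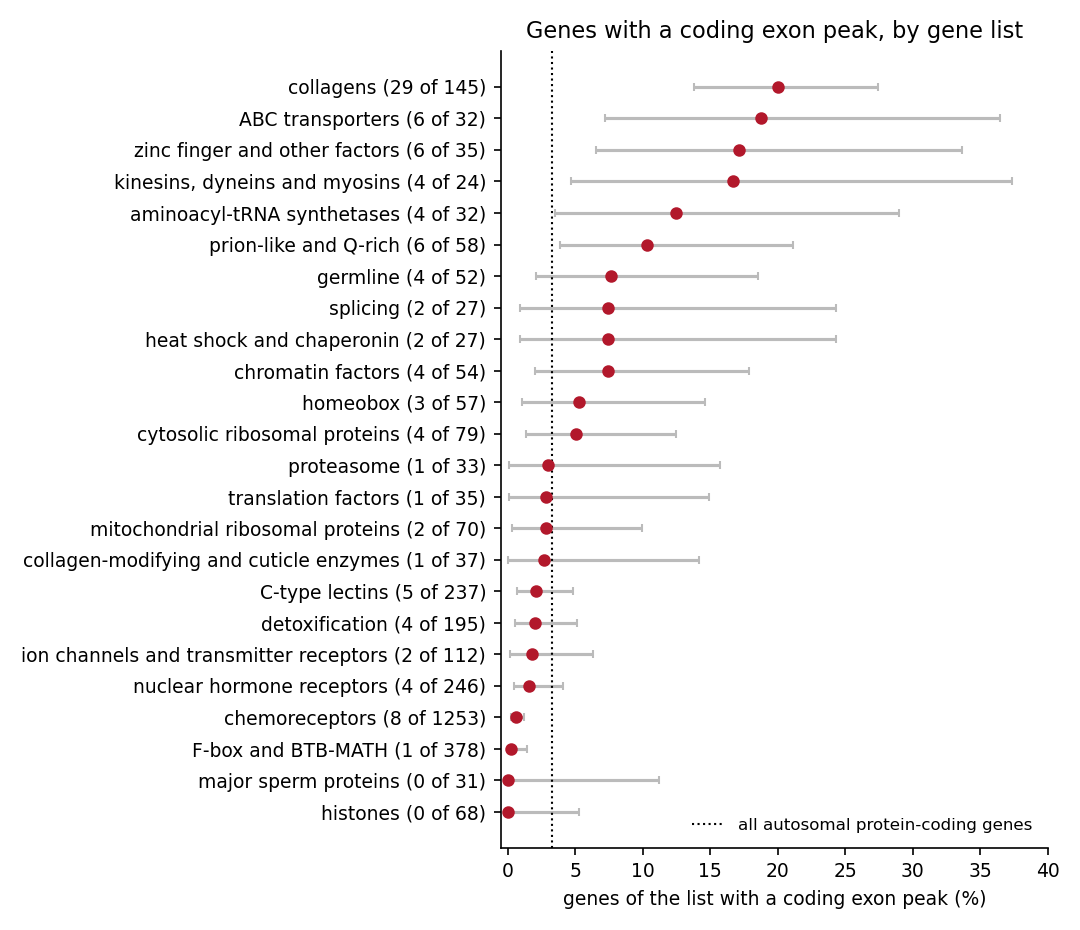
Percent of the autosomal genes of each list with a coding exon peak (x axis), with exact 95% intervals, for lists of at least 20 genes, and the share over all autosomal protein-coding genes as a dotted line. Collagens are highest at 20%, and F-box and BTB-MATH genes and chemoreceptors are near the lower end.

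Lists of structure, movement, transport and cuticle enzymes lay on both sides of the 3.31% of genes and 38.9 per Mb over all genes. Of 17 muscle and extracellular matrix giants, 7 had a peak, among them let-805 (signal 73.9), the epidermal receptor myotactin, ttn-1 (68.5), a titin-like protein, unc-44 (66.0), an ankyrin, and unc-54 (65.2), the major body wall myosin. These genes are long, and with 36.3 per Mb their density was near that of all genes. Kinesins, dyneins and myosins had 4 of 24, with dhc-1 (61.1), dhc-4 (59.6), hum-7 (54.7) and klp-16 (53.6), at 42.7 per Mb. ABC transporters had 6 of 32, led by wht-6 (70.8), wht-8 (69.6), mrp-7 (63.5) and pmp-5 (61.6), at 81.7 per Mb. Ion channels and transmitter receptors had 2 of 112 at 17.4 per Mb, lgc-55 (76.4) and twk-35 (64.7). Of the collagen-modifying and cuticle enzymes, 1 of 37 had a peak, nas-9 (46.1), at 22.8 per Mb.

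Genes of protein synthesis and turnover had between 1 and 4 genes with a peak in each list, too few for a close estimate. Over all genes, 3.31% had a peak and the density was 38.9 per Mb. Cytosolic ribosomal proteins had 4 of 79 genes (5.06%, interval 1.40 to 12.5%), namely rpl-2 (114), rps-8 (74.4), rpl-7A (69.3) and rpl-14 (66.6). As these genes are short, the position rule left them only 10.6 kb of coding sequence, and the density was 377 per Mb. Mitochondrial ribosomal proteins had 2 of 70 (2.86%), mrpl-4 (70.7) and mrpl-24 (68.2). Each had 2 overlapping peaks with summits 200 bp apart, so their density of 169 per Mb counts 4 peaks. Aminoacyl-tRNA synthetases had 4 of 32 at 81.5 per Mb, lars-1 (74.1), kars-1 (60.1), nars-1 (52.6) and rars-1 (9.96). Translation factors had 1 of 35 at 42.4 per Mb, the elongation factor eef-1A.1 (77.9). Chaperones had 2 of 27 at 87.8 per Mb, cct-1 (71.1) and hsp-1 (59.7), and the proteasome had 1 of 33 at 47.4 per Mb, pbs-1 (87.8). Splicing factors had 2 of 27 at 65.4 per Mb, snrp-200 (88.4) and rsp-8 (85.8).

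Lists of nuclear regulation and the germline ranged in density from 17.5 to 175 per Mb, against 38.9 over all genes, of which 3.31% had a peak. Zinc finger and other factors had 6 of 35 (17.1%, interval 6.56 to 33.6%) at 175 per Mb, with zfp-1 (83.5), daf-16 (64.0), the FOXO factor of insulin signalling, ztf-6 (61.3) and egl-43 (56.6). Chromatin factors had 4 of 54 at 35.1 per Mb, swsn-1 (96.0), set-5 (65.3), set-16 (65.2) and ssl-1 (55.1). Homeobox genes had 3 of 57 at 58.01 per Mb, ceh-62 (73.1), ceh-92 (70.7) and ceh-38 (65.4), and nuclear hormone receptors 4 of 246 at 17.5 per Mb, nhr-60 (70.9), nhr-61 (66.2), nhr-257 (54.1) and nhr-186 (38.2). Germline genes had 4 of 52 at 75.9 per Mb, with glh-1 (79.9) of the P granules, fbf-1 (70.2), pgl-2 (61.4) and csr-1 (60.01). Prion-like and Q-rich proteins had 6 of 58 at 97.5 per Mb, led by pqn-54 (77.5), pqn-75 (67.4), pqn-41 (65.1) and pqn-26 (64.9), and vitellogenins and yolk uptake had 1 of 2, vit-6 (64.6), which lies in only 7.48 kb of coding sequence that met the rule.

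Large gene families differed in density, where all genes had 38.9 per Mb and 3.31% of genes with a peak. Chemoreceptors had 8 of 1253 genes (0.639%, interval 0.276 to 1.25%) and 9.14 per Mb, led by srw-85 (77.0), str-61 (67.7), srg-25 (60.9) and srh-200 (58.5). F-box and BTB-MATH genes had 1 of 378, bath-46 (61.9), and 3.67 per Mb. C-type lectins had 5 of 237 at 42.7 per Mb, with clec-49 (74.8), clec-97 (73.9), clec-78 (67.7) and clec-85 (67.6). Detoxification genes had 4 of 195 at 21.3 per Mb, cyp-37A1 (77.1), cyp-34A1 (68.8), gst-33 (61.6) and gst-28 (58.5). Histones (0 of 68) and major sperm proteins (0 of 31) had none, but the position rule left them only 0.654 and 3.40 kb of coding sequence, too little to show an absence.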

How the data were processed

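Peak lists from ChIP-seq of 2 biological replicates on the ce11 assembly (per the labels) were used as deposited. The authors' score, signal and −log10 IDR per peak are the deposited values. Aligner, peak caller and any control were not given in the sources used here. Per the accompanying file notes, series lists derive from both replicates and sample lists from 1. Depth is unknown.

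From these, summits were classified against the Ensembl 115 annotation of WBcel235, with masks and sequence read with scipy 1.17.1, pandas 2.3.3 and numpy 2.4.6 under Python 3.11.15, and figures drawn with matplotlib 3.10.9. Overlap means at least 1 bp, and the replicate value is that of the ranked peak with the longest overlap. GC content was taken in 50 bp to either side of a position. Densities use coding bases that met the position rule, and comparisons of GC content, words and collagen genes by GC use every 50th such base. The steps were tested on simulated summits.

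Members, gene lists and the split of chromosome V at 19 Mb were chosen with earlier results of these data known. Named genes are the 20 members of highest signal, members in both replicate lists, genes with at least 2 members, up to 4 genes per list by signal, and the members next to the score limit. hip-1, ssq-1, dos-3, ZC178.2, cle-1, emb-9, sqt-3, bli-1, col-36 and col-145 were named after their values were seen. With 1 group, no comparison of conditions was possible.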

Additional observations from a re-analysis of the deposited data

How the results depend on the processing

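The 9 results here (the numbers of peaks, of genes and of collagen genes, and 6 shares) gave 139 values under 20 alternatives, of which 97 stayed within 1.5 times for a count or within the 95% interval for a share. The other promoter windows, small RNA distances, UTR rule, GC windows, flanks, copy length, overlap and merging of summits moved none of the results they were run for, and neither did leaving out low signals or collagen genes. All 42 that moved came from stricter lists, a single replicate or the loss of the end of chromosome V. An IDR of 0.001 left 6 peaks in 6 genes, 0 of them collagen genes, with 50% in the replicate 1 list, 83.3% in that of replicate 2 and 33.3% in both, GC above flanks in 100%, 0% in the central part and 83.3% single copy. The conservative list gave 107 peaks, 94 genes and 9 collagen genes, with 3.74%, 12.1% and 1.87% in the replicate 1, replicate 2 and both lists, 92.5% with GC above flanks and 29.0% in the central part. The authors' thresholded list, tried after seeing the data like the last 3 alternatives, gave 95 genes and 9 collagen genes, with 3.85%, 16.3% and 1.92% in those lists, 94.2% with GC above flanks and 33.7% in the central part. Without chromosome V beyond 19 Mb, 1.03% were in the replicate 2 list, 0% in both and 46.9% in the central part. Taking the members from the thresholded list of 1 replicate gave 5 to 18 peaks, 5 to 16 genes and 0 to 1 collagen genes, 11.1 to 40% in both lists, 80 to 88.9% with GC above flanks, 0 to 16.7% in the central part and 94.4 to 100% single copy. Of the replicate 2 peaks 11.1% were in the replicate 1 list, and of the replicate 1 peaks 40% were in that of replicate 2; a list's share in itself was not computed. Stricter lists hold fewer peaks by construction; the cause of the other changes was not tested. No paired analysis was possible because there is 1 group. Unknown depth and 2 replicates limit every value.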

Other observations

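Some gene families were picked after their members had been seen and are given as values, beside 3.31% of all genes with a peak and 38.9 peaks per Mb. Hedgehog-related genes (grd-11, grd-5, grl-10, grd-2 and grl-25), which in C. elegans are mostly secreted by the epidermis, had a coding exon peak in 5 of 49 genes, at 193 per Mb. Cuticlin and noah genes of the cuticle and apical matrix had peaks in 4 of 32 (noah-1, cutl-13, cut-1 and cut-2) at 114.99 per Mb, and Argonautes in 3 of 18 (csr-1, ppw-2 and hrde-1) at 115.9 per Mb. Chondroitin proteoglycans had peaks in 3 of 12 (cpg-23, cpg-8 and cpg-1) at 287 per Mb, and actins in 1 of 4 (act-5) at 682 per Mb, from 2 peaks in 2.93 kb.

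There were 45 members with a signal under 40. Of these, 30 overlapped another peak of at least the same score limit with a higher signal, for example 1 of the 2 peaks in col-163 (14 beside 77.7) and in col-48 (10.8 beside 72.3). None of the 592 members with a signal of 40 or more overlapped a peak of higher signal.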
